A study of Mus musculus with 10 samples.

Results

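Krüppel-like factors (KLF) are transcription factors that bind GC-rich and CACCC sequences through zinc fingers at their carboxyl end and recruit different partners through the rest of the protein. The genes described here are 10 of the family, chosen by name out of 38922 genes in the tables: Klf2, Klf3, Klf4, Klf5, Klf6, Klf9, Klf10, Klf12, Klf13 and Klf15. Livers came from wild-type male C57BL/6N mice aged 6 weeks, 5 injected intraperitoneally with 0.5 µg/g of CD95-Ab and 5 with an equal volume of saline, and were collected 6 h later. CD95-Ab is an antibody that activates the death receptor CD95 (Fas), to which hepatocytes are very sensitive. The controls received saline and no control antibody. Each library was made from whole liver of 1 mouse.

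The family is usually divided by partner proteins. Klf2, Klf4, Klf5 and Klf6 act mainly as activators, Klf3 and Klf12 bind the corepressor CtBP, and Klf9, Klf10 and Klf13 bind the corepressor Sin3, while Klf15 stands outside these classes. In liver, Klf15 is known for its place in amino acid breakdown and glucose production, and Klf6 for its response to injury. Klf2 and Klf4 are known for keeping endothelium quiescent, Klf9 is induced by glucocorticoids, and Klf10 is an early response gene of TGF-beta.

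At 6 h, Klf6 mRNA was 10.1-fold higher and Klf15 mRNA 4.54-fold lower after CD95-Ab than in saline-injected controls. Klf4, Klf2 and Klf3 rose as well, by 3.74-fold, 2.18-fold and 2.13-fold. Klf9, Klf10, Klf12 and Klf13 did not pass the test, and Klf5 was too low to be tested.

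Totals ranged from 25965699 to 62097636 counts per mouse, so that 3 counts corresponded to between 0.0483 and 0.116 CPM (counts scaled to a common library total) before adjustment. CPM given below use totals adjusted by TMM, a factor for library composition. Counts of mice of 1 group differed far beyond counting noise in each of 20 pairs, with a chi-square per degree of freedom of at least 39.4, so each mouse was counted as a separate sample. Over the 13719 genes with enough counts, 47.3% passed a false discovery rate (FDR) of 0.05 in the quasi-likelihood test of edgeR, with 25.4% of the tested genes higher and 22.0% lower after CD95-Ab. The median log2 fold change of all tested genes was 0.01. Of the 10 members, 9 were tested, 4 rose and 1 fell, a share of calls near that of all genes.

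The 250 bases before the transcription start of the members that changed most, or that share a known upstream pathway, are shown first, from RefSeq (GRCm38.p6), which held a promoter window for 8 of the 10 members and none for Klf5 and Klf10. Each is written 5′ to 3′ on the strand of the gene. Capitals mark the MEF2 site in Klf2, where MEF2 factors downstream of ERK5 are known to act, and the E-box CACGTG in the other sequences. The Klf2 window is chr8:72318812-72319061 (+), the Klf4 window chr4:55532476-55532725 (-), the Klf6 window chr13:5861239-5861488 (+) and the Klf15 window chr6:90462326-90462575 (+).
Klf2: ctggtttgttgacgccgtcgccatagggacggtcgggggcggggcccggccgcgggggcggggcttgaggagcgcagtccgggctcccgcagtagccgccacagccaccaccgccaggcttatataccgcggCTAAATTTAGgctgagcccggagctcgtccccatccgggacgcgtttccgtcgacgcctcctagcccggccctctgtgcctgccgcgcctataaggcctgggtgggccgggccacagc
Klf4: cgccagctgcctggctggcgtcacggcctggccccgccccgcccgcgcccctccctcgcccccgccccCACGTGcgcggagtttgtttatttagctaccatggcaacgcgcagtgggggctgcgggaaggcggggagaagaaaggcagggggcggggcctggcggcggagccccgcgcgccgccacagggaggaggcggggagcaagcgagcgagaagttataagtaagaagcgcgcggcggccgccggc
Klf6: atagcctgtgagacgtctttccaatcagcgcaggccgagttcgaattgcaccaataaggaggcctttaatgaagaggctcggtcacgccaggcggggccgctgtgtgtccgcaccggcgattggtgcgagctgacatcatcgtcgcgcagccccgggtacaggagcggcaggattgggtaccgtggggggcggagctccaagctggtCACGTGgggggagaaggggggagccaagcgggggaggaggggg
Klf15: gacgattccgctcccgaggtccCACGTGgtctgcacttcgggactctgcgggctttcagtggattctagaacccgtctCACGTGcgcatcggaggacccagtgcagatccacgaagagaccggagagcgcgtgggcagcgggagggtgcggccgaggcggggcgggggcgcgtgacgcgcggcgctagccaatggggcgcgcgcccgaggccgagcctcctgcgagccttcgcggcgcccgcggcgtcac

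The E-box CACGTG stood in 3 of the 8 members with a window. Klf15 held 2 of them, 228 and 172 bases before the start, Klf4 held 1 at 182 bases and Klf6 held 1 at 43 bases. It was found in 6.02% of the 32851 promoter windows of the table, each of 250 bases and read on both strands. The E-box was thus present in promoters of members that rose and of the member that fell. The MEF2 site was found in Klf2 alone among the 8 members, 118 bases before the start, and in 2.92% of all windows. The GC box GGGCGG (32.7% of all windows) stood in Klf2, Klf3, Klf4, Klf6, Klf13 and Klf15, with 6 matches in Klf3. CACCC (52.0% of all windows) stood in Klf2, Klf3, Klf9, Klf12, Klf13 and Klf15, with 5 matches in Klf3. TGACG (17.8%) stood in Klf2, Klf4, Klf9, Klf12, Klf13 and Klf15, and TATAAA (12.4%) in Klf12. No member window held TGACGTCA (1.55% of all windows, each also a TGACG match), TGACGCAA (0.438%, likewise), TGACTCA (4.46%), AGAACA (16.1%), a CArG box (1.47%) or an NF-kB site (3.90%). A match is a match of letters only and was not tested for binding.

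Klf6 (ENSMUSG00000000078, chr13:5861482-5870394, GRCm38, + strand) encodes an activator known to be induced by tissue injury, in stellate cells among others. Its level was 9.88, 9.25, 6.23, 9.35 and 13.4 CPM in saline replicates 1 to 5 and 111, 104, 125, 79.4 and 69.4 CPM in CD95-Ab replicates 1 to 5. The lowest mouse injected with CD95-Ab lay far above the highest control. The mean rose from 9.63 ± 2.57 to 97.6 ± 22.8 CPM (SD, n = 5 per group), a 10.1-fold difference in the fit. Its log2 fold change was 3.34 with a standard error (SE) of 0.23 (edgeR FDR = 1.06e-06), and 2.24% of all tested genes had a change at least as high.

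Klf4 (ENSMUSG00000003032, chr4:55527143-55532466, - strand) encodes an activator of endothelium, epithelium and monocytes. It was low in saline-injected controls, at 0.988, 0.267, 1.35, 1.23 and 1.19 CPM, and stood at 1.76, 3.53, 7.09, 3.79 and 2.79 CPM after CD95-Ab. The groups did not overlap, though the gap between the nearest mice was narrow. The log2 fold change was 1.90 (SE 0.43, edgeR FDR = 0.00318), a 3.74-fold rise. The counts behind these values were 9 to 64 per control and 55 to 178 per mouse injected with CD95-Ab.

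Klf2 (ENSMUSG00000055148, chr8:72319033-72321656, + strand) encodes the flow-responsive factor of endothelium, which is also made by T cells and macrophages. Controls had 3.98, 2.28, 4.68, 4.0 and 6.04 CPM, and mice injected with CD95-Ab had 5.81, 9.78, 15.5, 9.08 and 5.85 CPM. CD95-Ab replicates 1 and 5 fell just under saline replicate 5, so the groups overlapped. The log2 fold change was 1.12 (SE 0.31, edgeR FDR = 0.00981), a 2.18-fold rise.

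Klf3 (ENSMUSG00000029178, chr5:64803388-64832901, + strand) encodes a CtBP-binding repressor. Its levels were 23.7, 15.0, 17.2, 14.7 and 13.8 CPM in controls and 33.5, 44.6, 57.1, 15.5 and 29.2 CPM after CD95-Ab. Of the mice injected with CD95-Ab, 4 lay above all controls, and replicate 4 lay among them. The log2 fold change was 1.09 (SE 0.29, edgeR FDR = 0.00872), a 2.13-fold rise.

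Klf15 (ENSMUSG00000030087, chr6:90462576-90475238, + strand) was the member that fell. Its level was 168, 103, 139, 119 and 122 CPM in saline replicates 1 to 5 and 37.8, 25.0, 28.1, 25.0 and 27.4 CPM in CD95-Ab replicates 1 to 5. All mice injected with CD95-Ab lay below all controls, and the spread within each group was small. The mean went from 130.1 ± 24.4 to 28.7 ± 5.29 CPM (SD, n = 5 per group), 4.54-fold lower in the fit. The log2 fold change was -2.18 (SE 0.17, edgeR FDR = 2.03e-06), and 0.773% of all tested genes had a change at least as low.

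**Figure D1:**
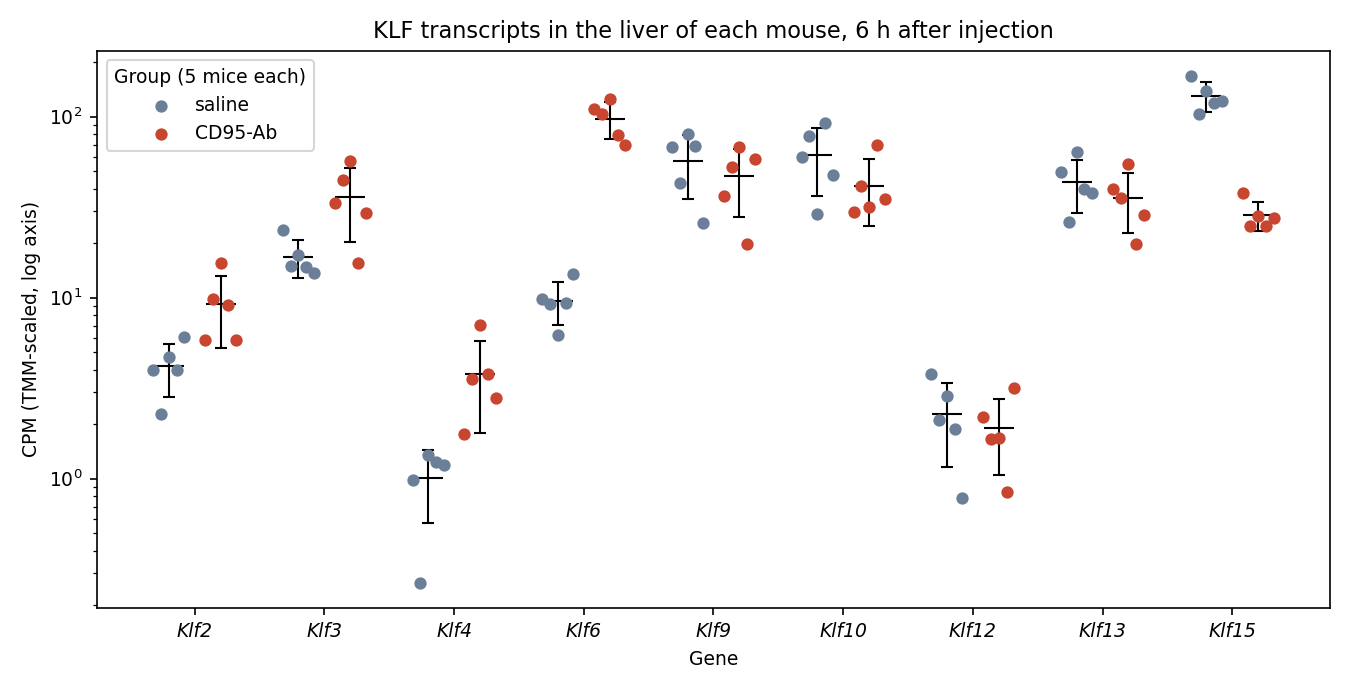
CPM (log axis) of the 9 tested members in each mouse, with grey points for the 5 saline-injected controls, red points for the 5 mice injected with CD95-Ab, and black bars for the mean ± SD. Klf6, Klf4 and Klf15 separate the groups, Klf2 and Klf3 rise with overlap, and the other members overlap widely.

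The ranges of both groups stood apart for Klf6 and Klf4, with CD95-Ab above, and for Klf15, with CD95-Ab below. Among all tested genes, 18.6% stood apart with CD95-Ab above and 14.7% with CD95-Ab below. In the exact permutation test on log2(CPM + 0.1), two-sided and not adjusted, Klf4, Klf6 and Klf15 reached p = 0.00794, the smallest that 5 mice against 5 can give. Klf2 and Klf3 each had p = 0.0238 in that exact test, and the other 4 tested members had p between 0.190 and 0.651. With the further demand of an absolute log2 fold change of 2, the size used by the study, Klf6 alone rose and Klf15 alone fell. That demand was met by 6.59% of all tested genes that were higher and by 1.11% that were lower.

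The Sin3-binding members were abundant and varied from mouse to mouse. Klf10 (ENSMUSG00000037465, chr15:38291463-38300706, - strand), the TGF-beta early response gene, had 60.0, 78.1, 28.9, 92.6 and 47.6 CPM in controls and 29.7, 41.4, 31.6, 70.0 and 35.1 CPM after CD95-Ab. Saline replicate 3 was the lowest of all mice, and CD95-Ab replicate 4 stood among the high controls. Its log2 fold change was -0.56 with a 95% interval from -1.25 to 0.12 (edgeR FDR = 0.157). Without CD95-Ab replicate 4 it was -0.85 (edgeR FDR = 0.0281) and without saline replicate 3 it was -0.75 (edgeR FDR = 0.0443), so the call on Klf10 depended on single mice.

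Klf9 (ENSMUSG00000033863, chr19:23141226-23168134, + strand) ranged from 25.8 to 80.4 CPM in controls, with a median of 68.3, and from 19.7 to 67.6 CPM after CD95-Ab, with a median of 52.8. Its log2 fold change was -0.28 (95% interval -1.04 to 0.47, edgeR FDR = 0.529). Klf13 (ENSMUSG00000052040, chr7:63886351-63938915, - strand), a factor known from T cells and heart, ranged from 26.1 to 63.9 CPM in controls and from 19.9 to 54.7 CPM after CD95-Ab. Its log2 fold change was -0.29 (95% interval -0.89 to 0.31, edgeR FDR = 0.416). Both intervals ended below the point estimates of Klf2 and Klf3. The 95% intervals of Klf2 and Klf3 each began at 0.46, so that of Klf9 overlapped them. No difference between genes was tested. Klf13 overlaps 2 genes of the other strand that had at most 69 and 73 counts in a mouse, and whether the counting used strand is not given in the sources used here.

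Klf12 (ENSMUSG00000072294, chr14:99870632-100284679, - strand), the second CtBP-binding member, was scarce. It ranged from 0.779 to 3.76 CPM in controls and from 0.848 to 3.17 CPM after CD95-Ab, and its log2 fold change was -0.24 (95% interval -1.13 to 0.65, edgeR FDR = 0.651). Klf5 (ENSMUSG00000005148, chr14:99298691-99315036, + strand), an activator of epithelial cells, had 0 to 4 counts per control and 1 to 8 counts per mouse injected with CD95-Ab. That is at most 0.319 CPM, and no fold change is given.

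**Figure D2:**
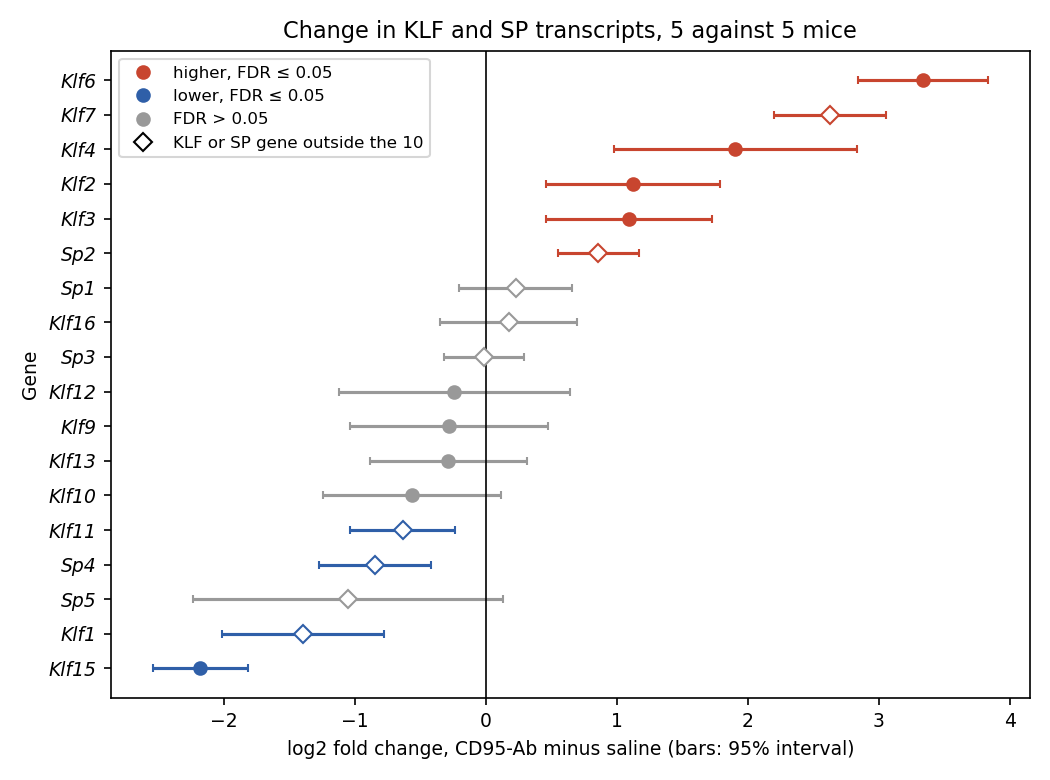
log2 fold change (CD95-Ab minus saline, 5 mice each) of every tested KLF and SP gene, with bars for the 95% interval, circles for the members and open diamonds for the other genes. The scale runs from Klf15 at -2.18 to Klf6 at 3.34, and the intervals of Klf9, Klf10, Klf12 and Klf13 include 0.

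Mice of 1 group differed in most members more than in the median gene. The SD of log2(CPM + 0.1) within a group exceeded the median of all tested genes, 0.27 in controls and 0.31 after CD95-Ab, for 8 of the 9 tested members in each group. The exception was Klf15, with 0.26 in controls and 0.24 after CD95-Ab. The widest was Klf4 in controls, at 0.82, followed by Klf12 in controls, at 0.81. CD95-Ab replicate 3 was the highest of its group for 7 of the 10 members, among them all 4 that rose, and CD95-Ab replicate 4 was the lowest for 6 of the 10. Replicate 4 was at the same time the highest of its group for Klf10, so it was not low for every member. Its summed level of the 10 members was nonetheless the lowest of all mice, at 243 CPM against at least 269 CPM in controls.

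**Figure D3:**
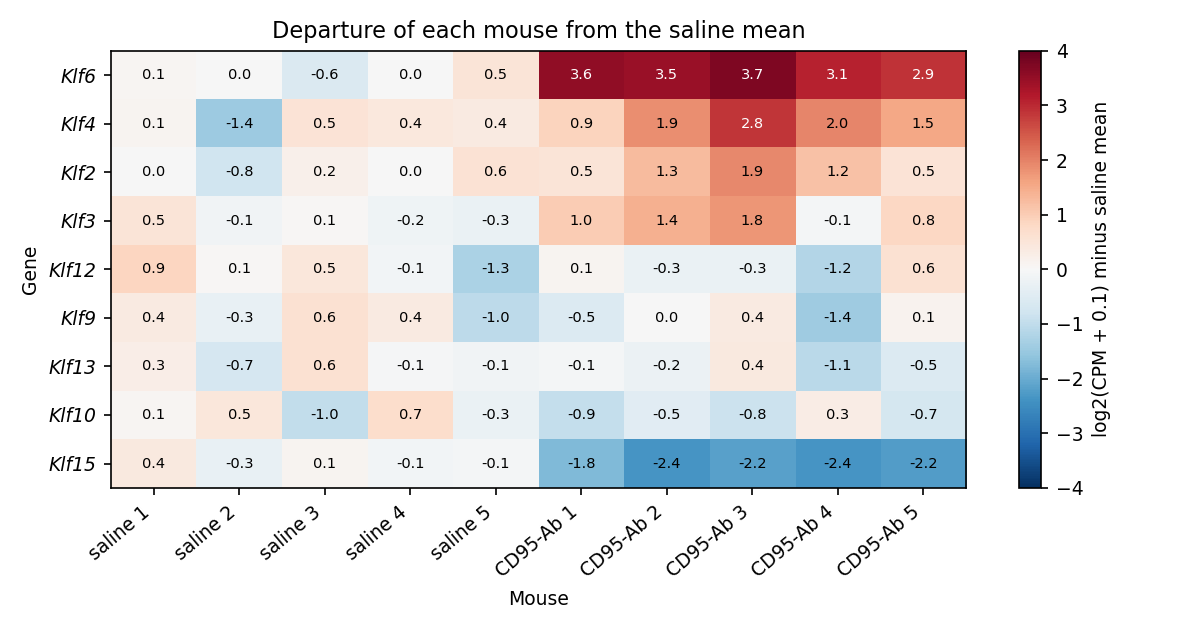
log2(CPM + 0.1) of each mouse minus the mean of the 5 saline-injected controls, with members as rows and mice as columns (red above, blue below). Klf6 and Klf15 depart alike in all 5 mice injected with CD95-Ab, whereas CD95-Ab replicate 4 stays near the controls for Klf3.

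Levels of different genes were compared per length, with the FPKM values that the authors deposited. In controls Klf15 led with a mean of 58.3 ± 14.2 FPKM and lay above all other members in every mouse. Klf10 (21.4 ± 9.36 FPKM) and Klf9 (18.7 ± 7.69 FPKM) came next with ranges that overlapped, then Klf3 (8.74 ± 2.12 FPKM) and Klf13 (7.39 ± 2.63 FPKM), which overlapped too. Klf2 (2.37 ± 0.57 FPKM) and Klf6 (2.36 ± 0.50 FPKM) could not be ordered, and Klf12 (1.35 ± 0.73 FPKM), Klf4 (0.34 ± 0.14 FPKM) and Klf5 (0.036 ± 0.025 FPKM) closed the order. The errors are SD over 5 mice.

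After CD95-Ab the order was headed by Klf6 at 23.0 ± 6.22 FPKM, which was above Klf3 (16.3 ± 6.43 FPKM) in each of the 5 mice although the ranges overlapped. Klf6 was the highest member in 3 of the 5 mice, while Klf10 led in replicate 4 (19.9 against 16.2 FPKM for Klf6) and Klf9 led in replicate 5 (18.2 against 16.8 FPKM). Klf3, Klf9 (14.3 ± 5.60 FPKM), Klf10 (13.2 ± 4.02 FPKM) and Klf15 (12.2 ± 3.63 FPKM) followed with ranges that overlapped from neighbour to neighbour. Klf13 (5.75 ± 2.07 FPKM) lay clear below Klf15 and overlapped with Klf2 (4.88 ± 1.78 FPKM). Klf4 (1.22 ± 0.55 FPKM) and Klf12 (1.06 ± 0.53 FPKM) overlapped, and Klf5 (0.084 ± 0.059 FPKM) was last.

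Shares within a mouse do not depend on the scaling of its library. Of the summed FPKM of all 17 KLF genes, Klf15 made up 45.7% ± 5.06 in controls, from 39.2% to 50.8%, and 12.4% ± 2.93 after CD95-Ab, from 9.32% to 16.7% (SD, n = 5 per group). Klf6 made up 1.94% ± 0.72 in controls and 23.0% ± 3.0 after CD95-Ab, from 18.8% to 27.3%. The ratio of Klf6 to Klf15 FPKM lay between 0.0249 and 0.0612 in controls and between 1.41 and 2.47 after CD95-Ab, so Klf15 exceeded Klf6 in every control and Klf6 exceeded Klf15 in every mouse injected with CD95-Ab. Klf9 kept a mean share of 14.2% in both groups. The summed FPKM of the family ranged from 90.1 to 165 in controls and from 71.4 to 116 after CD95-Ab, and these ranges overlapped. These shares were chosen after the values were seen and carry no test.

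**Figure D4:**
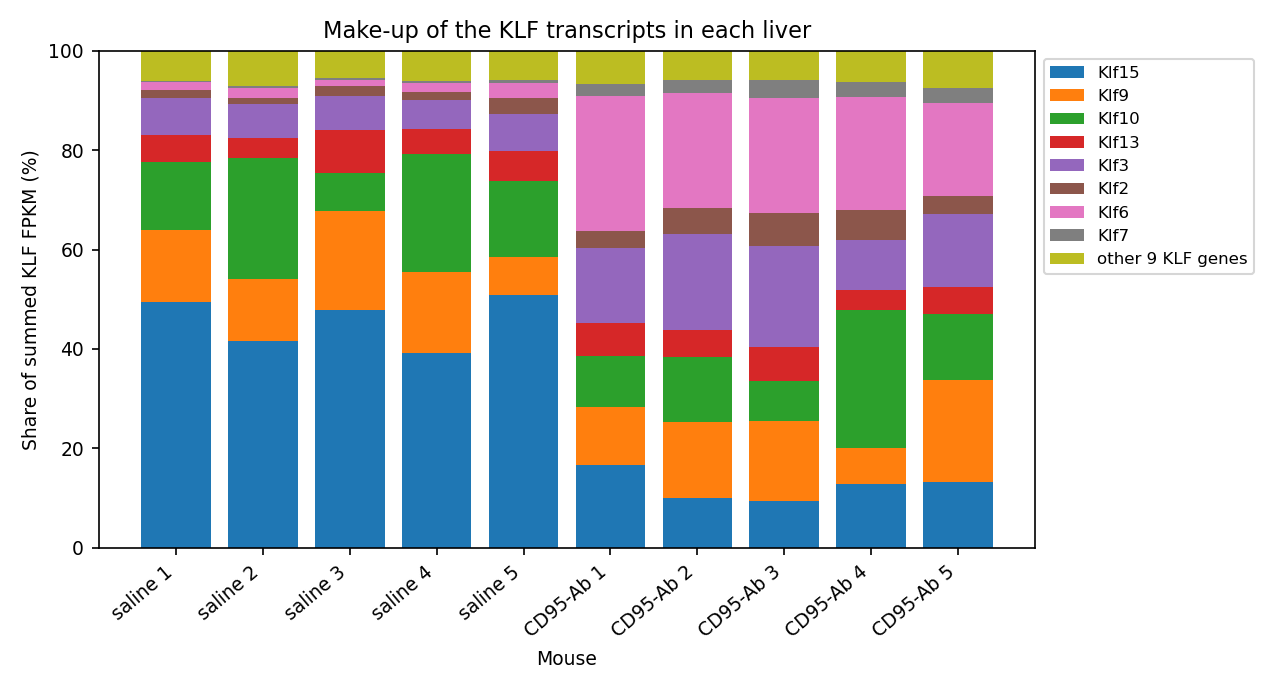
Share (%) of each gene in the summed FPKM of 17 KLF genes, 1 bar per mouse, with the other 9 genes joined. Klf15 takes between 39.2% and 50.8% in the 5 controls and at most 16.7% after CD95-Ab, where Klf6 takes at least 18.8%.

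Of the 7 KLF genes outside the 10, 4 were tested, 1 rose and 2 fell, against 25.4% higher and 22.0% lower among all tested genes. Klf7, an activator close to Klf6 in sequence, rose from 3.34 ± 0.54 to 20.7 ± 5.68 CPM (log2 fold change 2.63, SE 0.20, edgeR FDR = 1.94e-06), the change nearest to that of Klf6 in the family. A gene of the other strand that overlaps Klf7 had up to 215 counts in a mouse, against 94 to 839 for Klf7. Klf1, the erythroid factor that drives globin genes, was low and fell from 1.37 ± 0.25 to 0.530 ± 0.20 CPM (log2 fold change -1.40, SE 0.28, edgeR FDR = 0.00178). Over the same mice the summed CPM of 6 erythroid markers, globin genes included, went from between 135 and 325 to between 1064 and 34009, and all 6 rose, led by Hbb-bs at a log2 fold change of 6.83, Hbb-bt at 6.58, Hba-a2 at 6.56 and Hba-a1 at 6.41. The groups overlapped for Alas2 (73.2 to 105 CPM in controls, 72.7 to 415 CPM after CD95-Ab). They overlapped for Slc4a1 too (0.094 to 1.93 CPM and 0.064 to 14.1 CPM). The part of blood in the liver in the value of Klf1 was not tested. Klf11, a Sin3-binding factor, fell by 0.64 on the log2 scale (SE 0.18, edgeR FDR = 0.0135), and Klf16 was at 0.17 (edgeR FDR = 0.577). Klf8 was near 0, and Klf14 and Klf17 were listed at 0 in every mouse.

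By class, the 5 tested activators (Klf1, Klf2, Klf4, Klf6 and Klf7) counted 4 that rose and 1 that fell. The 5 tested Sin3-binding factors (Klf9, Klf10, Klf11, Klf13 and Klf16) counted 1 that fell, and the only one with a positive value, Klf16, did not pass in edgeR or in DESeq2 and had an unadjusted p of 0.483 in edgeR. Of the 2 tested CtBP-binding factors, Klf3 rose and Klf12 did not pass. The median log2 fold change was 1.90 for the tested activators and -0.29 for the Sin3-binding factors. Among all tested genes 25.4% were higher and 22.0% lower, so 1 of 5 lower among the Sin3-binding factors lay near the background. Differences between the classes were not tested. The SP factors share the zinc fingers of the family and its GC-rich sites. Of 9, 5 were tested. Sp2 rose by a log2 fold change of 0.86 (edgeR FDR = 0.000441) and Sp4 fell by 0.85 (edgeR FDR = 0.00396), while Sp1 was at 0.23, Sp3 at -0.02 and Sp5 at -1.05 without passing. Sp5 passed when CD95-Ab replicate 4 was left out, which made 2 SP genes lower.

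Of 10 corepressor and coactivator genes, 3 rose and 2 fell, with a median log2 fold change of 0.03. Calls among all tested genes were 25.4% higher and 22.0% lower, so these counts lay near the background. Ctbp2, which encodes a partner of Klf3 and Klf12, rose by 1.67 (edgeR FDR = 7.36e-05), from 0.799 to 2.55 CPM, while its paralog Ctbp1, at 25.5 and 28.8 CPM, was at 0.18 (edgeR FDR = 0.142). Sin3a, which encodes a partner of the Sin3-binding class, fell by 0.66 (edgeR FDR = 0.00168), while its paralog Sin3b was at -0.12 (edgeR FDR = 0.439), and the acetyltransferase gene Kat2b fell by 0.71 (edgeR FDR = 0.0135). Hdac1 was called at 0.35 (edgeR FDR = 0.0437), but the call was lost in 9 of the 10 fits that left out 1 mouse, all but that without CD95-Ab replicate 4, with edgeR FDR up to 0.122. The other gene that rose was Hdac2, at 0.24 (edgeR FDR = 0.0438), named after its value was seen. The count that rose was 1, Ctbp2 alone, in place of 3 without any of saline replicates 1 to 4 or CD95-Ab replicates 1, 2, 3 and 5. Of 4 ubiquitin ligase genes that act on KLF proteins, Fbxw7 rose by 0.67 (edgeR FDR = 0.000958) and Wwp1 fell by 0.47 (edgeR FDR = 0.0235), and the median was 0.00. The call on Wwp1 was lost without saline replicate 3 (edgeR FDR = 0.0583) and without CD95-Ab replicate 2 (edgeR FDR = 0.0572).

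Klf2 and Klf4 are known to be induced in endothelium by the kinase ERK5 through MEF2 factors, a pathway that the CCM proteins restrain. Of the 10 genes of this pathway, 6 rose and 1 fell, with a median log2 fold change of 0.42. Among all tested genes 25.4% were higher and 22.0% lower, which is the background for each list of genes or markers below. The list mixes genes of the kinase pathway with genes of the CCM side, and some of both rose. Heg1, which encodes the receptor that anchors the CCM complex, rose by 2.25 (edgeR FDR = 5.55e-06). Mef2c rose by 1.63 (edgeR FDR = 0.000572) and Mapk7, the gene of ERK5, by 1.40 (edgeR FDR = 0.000438), whereas Map2k5, the gene of the kinase above ERK5, fell by 0.60 (edgeR FDR = 0.00672). Mapk7, Mef2c, Klf2 and Klf4 thus rose in the same livers, and none of these values tests a link between them.

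All 9 genes listed as endothelial targets of KLF2 and KLF4 rose, against 25.4% of all tested genes, with a median log2 fold change of 2.76. The weakest call was Nos3, the endothelial nitric oxide synthase gene, at 1.26 (edgeR FDR = 0.0412), named after its value was seen. It was lost in 7 of the 10 fits that left out 1 mouse (without saline replicate 1, 2 or 4 or CD95-Ab replicate 2, 3, 4 or 5, edgeR FDR up to 0.129), which left 8 genes. The list mixes genes that these factors are known to raise with genes they are known to restrain. Thbd, the gene of the anticoagulant receptor thrombomodulin and a gene that KLF2 raises, rose by 4.10 (edgeR FDR = 0.000152). The adhesion gene Sele at 8.13 (edgeR FDR = 4.11e-07), the chemokine gene Ccl2 at 7.97 (edgeR FDR = 5.21e-07) and the endothelin gene Edn1 at 3.44 (edgeR FDR = 0.00122) belong to those it restrains. In controls Sele had only 1 to 3 counts per mouse and Edn1 0 to 29, so the sizes of their changes are uncertain. Genes of both kinds rose together with Klf2 and Klf4.

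Markers of other cells moved with these genes. Of 6 sinusoidal endothelial markers 5 rose, with a median of 1.39, led by Lyve1 at 3.41, Cdh5 at 2.51 and Pecam1 at 1.80, while Kdr was at 0.29 without passing. Their summed level was between 48.5 and 104 CPM in controls and between 169 and 344 CPM after CD95-Ab. The mouse with the lowest sum of its group, saline replicate 2 and CD95-Ab replicate 1, was also the lowest of its group for Klf2 and for Klf4, and CD95-Ab replicate 3 was the highest for all of them. This order was not particular to endothelial markers. CD95-Ab replicate 3 was also highest for the summed hepatocyte, stellate cell, neutrophil, cholangiocyte and erythroid markers. CD95-Ab replicate 1 was also lowest for neutrophil, cholangiocyte and erythroid markers, and saline replicate 2 for hepatocyte, stellate cell and cholangiocyte markers. Among controls the endothelial sum was highest in saline replicate 3, whereas Klf2 was highest in saline replicate 5. Per 100 CPM of these markers, Klf2 stood at 5.62 ± 1.21 CPM in controls and 3.74 ± 0.90 CPM after CD95-Ab (SD, n = 5 per group), with ranges of 4.48 to 7.52 and 2.30 to 4.50. Klf4 stood at 1.30 ± 0.44 and 1.5 ± 0.44 CPM on the same measure. On this measure, chosen after the values were seen, the groups overlapped for both genes, and the mean of Klf2 was lower and not higher after CD95-Ab. The marker sum rose most through Lyve1 (mean 6.72 to 71.7 CPM) and Cdh5 (10.3 to 59.0 CPM). Kdr went from 12.2 to 14.8 CPM, so the measure depends on the markers chosen. The rise of Klf2 exceeded that of 3 of the 6 single markers and the rise of Klf4 that of 4. In whole liver, more cells of a type and more RNA per cell cannot be told apart, nor can fewer cells and less RNA.

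Neutrophil markers rose in 5 of 5 tested genes, with a median of 6.02, led by S100a8 at 6.44, S100a9 at 6.16 and Retnlg at 6.02, and their sum went from between 4.08 and 10.2 CPM to between 102 and 407 CPM. T and NK cell markers rose in 6 of 6 (median 1.19, led by Il7r at 2.35), from between 1.01 and 2.71 to between 5.03 and 6.50 CPM. Stellate cell markers rose in 4 of 6 (median 1.10, led by Dcn at 1.53), from between 135 and 205 to between 311 and 570 CPM. Cholangiocyte markers rose in 4 of 5 tested (median 1.46, led by Sox9 at 4.95), from between 18.4 and 33.9 to between 48.4 and 186 CPM. Of 6 Kupffer cell and macrophage markers 1 rose, Cd5l at 1.01, and their sums overlapped, from 127 to 419 CPM in controls and from 230 to 510 CPM after CD95-Ab. No marker on any of these lists was at 0 in every mouse. The part of these cell types in the rise of Klf6, Klf4, Klf2, Klf3 and Klf7 was not tested.

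Around Klf15, 8 of 9 genes of amino acid and glucose metabolism that are linked to this factor fell, with a median log2 fold change of -1.03. Of all tested genes 22.0% were lower. G6pc, which encodes the last enzyme of glucose production, fell by 4.16 (edgeR FDR = 1.53e-05). Bcat2, an enzyme gene of branched-chain amino acid breakdown, fell by 1.52 (edgeR FDR = 4.14e-05), as did Ppargc1a, a coactivator gene of the fasting response (edgeR FDR = 0.00459), and Gls2, the gene of liver glutaminase, fell by 1.05 (edgeR FDR = 0.00177). The exception was the tyrosine aminotransferase gene Tat at 0.31 (edgeR FDR = 0.441). Hepatocyte markers fell in 2 of 6, Alb by 1.03 and Ttr by 0.93, with a median of -0.57. Their summed level was between 95875 and 124091 CPM in controls and between 44117 and 80854 CPM after CD95-Ab. Per 1000 CPM of hepatocyte markers, Klf15 stood at 1.21 ± 0.22 CPM in controls and 0.523 ± 0.13 CPM after CD95-Ab, and the ranges, 0.984 to 1.56 and 0.348 to 0.666, stood apart. This measure was chosen after the values were seen. It mainly follows Alb, which alone averaged 84727 CPM in controls and 41434 CPM after CD95-Ab. The fall of Klf15 was larger than that of each of the 6 hepatocyte markers. The part of hepatocyte loss in the fall of Klf15 was not tested.

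Klf9 and Klf15 are both induced by glucocorticoids. Of 9 genes listed for that response, 1 rose and 2 fell, with a median log2 fold change of 0.31. Among all tested genes 25.4% were higher and 22.0% lower, so these counts did not exceed the background. Tsc22d3, the gene of the glucocorticoid-induced leucine zipper, fell by 2.26 (edgeR FDR = 9.9e-05), close to Klf15, and Hsd11b1, whose product activates the hormone, fell by 0.52 (edgeR FDR = 0.0217). Sgk1, a kinase gene, rose by 0.86 (edgeR FDR = 0.0326). The call on Sgk1 was lost without saline replicate 2, 3 or 4 or without CD95-Ab replicate 3, with edgeR FDR between 0.0605 and 0.0945, and that on Hsd11b1 without saline replicate 3 (edgeR FDR = 0.0507) or CD95-Ab replicate 2 (edgeR FDR = 0.0581). The list thus held genes in both directions. It shares Tat, which did not pass, with the list of KLF15-linked genes.

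Klf10 is induced by TGF-beta, and 5 of 9 genes of that pathway rose, against 25.4% of all tested genes, with a median of 0.68. The ligand genes led, with Tgfb1 at 2.54 (edgeR FDR = 1.09e-06), Tgfb2 at 2.00 (edgeR FDR = 0.00142) and Tgfb3 at 1.2 (edgeR FDR = 0.00687), followed by the receptor gene Tgfbr1 at 0.80 (edgeR FDR = 0.000488). Klf10 itself stood at -0.56 without passing. The genes of the ligands and of the early response factor thus did not move together at 6 h.

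**Figure D5:**
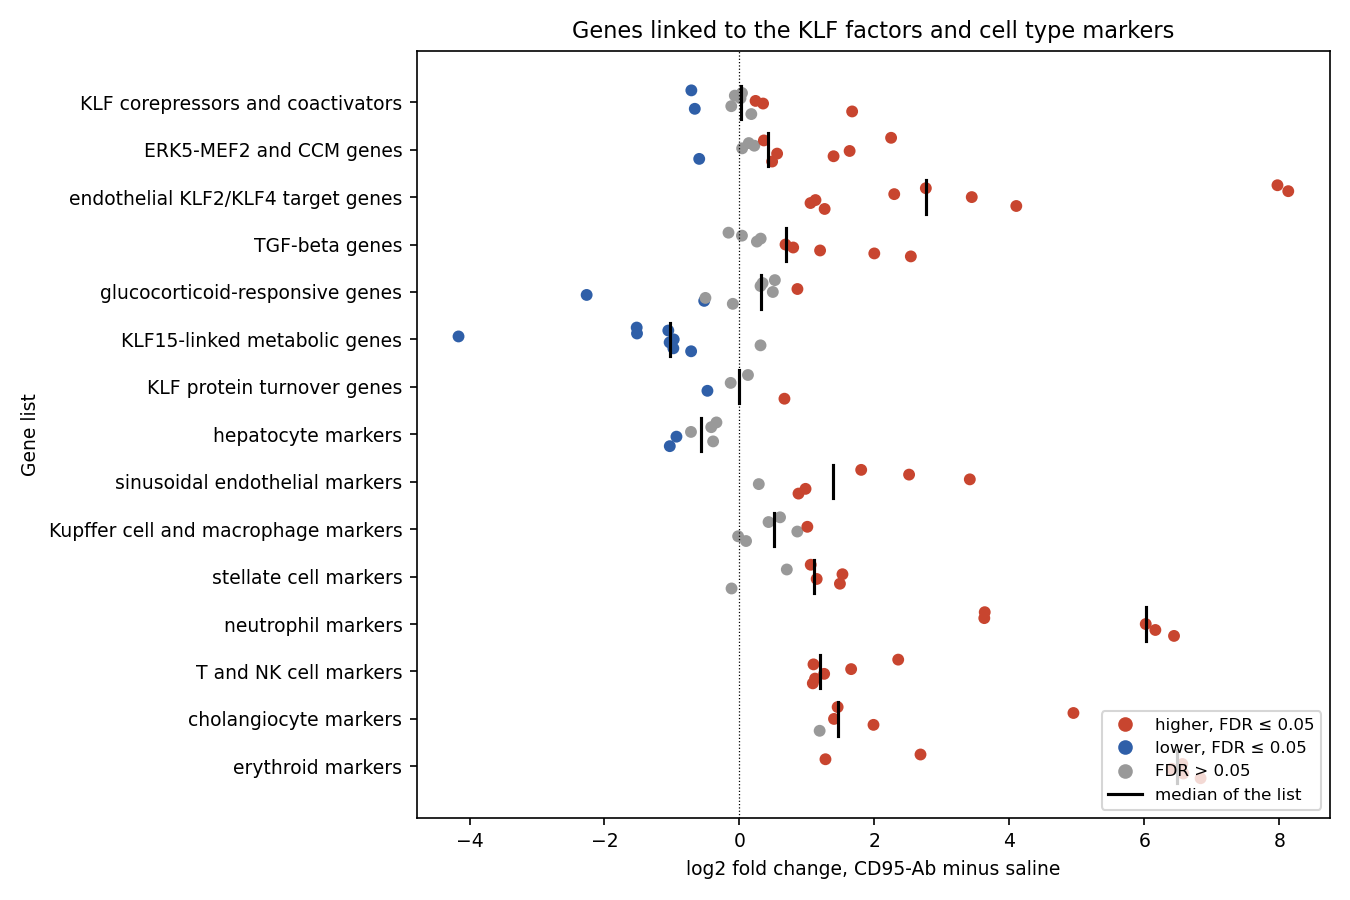
log2 fold change (CD95-Ab minus saline) of the tested genes of each list, with red for genes that rose, blue for genes that fell, grey for genes that did not pass an FDR of 0.05 and a black bar for the median of the list. Endothelial KLF2/KLF4 targets lie wholly above 0 with a median of 2.76, and KLF15-linked metabolic genes lie below 0 but for 1, with a median of -1.03.

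For each member, the tested genes with the most similar profile were sought, by the root mean square difference of log2 CPM, centred on each gene's mean, over the 10 mice. For Klf4 they were Esam and Cdh13, both cell adhesion genes, at 0.31. For Klf6 they were Lgals3, the galectin 3 gene, at 0.26 and the tubulin gene Tubb6 at 0.29. For Klf15 they were the sterol transporter gene Abcg8 and the lipid transfer gene Stard5, both at 0.22. For Klf2 they were Npdc1 and Tmem132e, both at 0.24, and for Klf3 Gabra3 and Pkia, both at 0.22. For Klf9 they were Abca3 at 0.16 and Nek7 at 0.18, for Klf10 Ccdc17 at 0.27 and A530072M11Rik at 0.29, for Klf12 Zfp871 at 0.20 and Cog5 at 0.21, and for Klf13 Atl2 at 0.20 and Wbp1l at 0.22.

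No member was the closest match of another. Klf2 and Klf4 were each other's nearest member, at 0.53, yet Klf2 ranked 83 among the genes nearest to Klf4, and Klf4 ranked 854 among those nearest to Klf2. Klf9 and Klf12 were each other's nearest, at 0.43, and Klf9 was the nearest member to Klf13, at 0.45. The members farthest from their nearest member were Klf6, at 1.06 from Klf4, Klf15, at 1.01 from Klf13, and Klf10, at 0.92 from Klf13.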

How the data were processed

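Liver RNA of 10 mice was sequenced as pairs of 100 bp reads from libraries of 500 ng of total RNA (TruSeq), and groups and replicate numbers came from the labels. Reads were assigned by the authors with RSEM 1.2.19, and 1 table per mouse was deposited with expected counts and FPKM. The expected counts deposited by the authors are whole numbers without normalization. The FPKM deposited by the authors are scaled for length and total, and serve here for levels of different genes within a mouse. The methods name a human Gencode release, but the deposited identifiers are mouse Ensembl identifiers, and the mouse genome build and annotation release are not given in the sources used here. RSEM shares out reads that match several genes, which can affect close paralogs.

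Symbols and positions came from GENCODE mouse release M21 (GRCm38), which named 37606 of 38922 identifiers. Groups were compared in R 4.3.3 with edgeR 4.0.16 (quasi-likelihood test), using filterByExpr (minimum count 10), TMM factors, group as the only term and Benjamini-Hochberg adjustment over 13719 genes. SE were derived from the F statistic. The code was tested on simulated counts. Python 3.11.15, pandas 2.3.3 and scipy 1.17.1 made the tables, and a pseudocount of 0.1 CPM was used in exact tests. The depth, from 25965699 to 62097636 counts per mouse, sets the precision of low genes.

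The members and all gene lists were chosen with earlier results of these data known. Named genes are the 10 members, every tested KLF or SP gene, up to 4 called genes with the largest change of each list, and the 2 genes most like each member. Genes that did not pass are named where they stand out. Alternatives were DESeq2 1.42.0, the likelihood ratio test, other normalization factors, filters and thresholds, a block for the replicate number, and fits that left out a single mouse. Protein levels were not analysed here.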

Additional observations from a re-analysis of the deposited data

Results flagged for a closer look

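Among 18 groups of 5 mice (the 9 tested members in each group), 1 had a mouse set apart from the others by Dixon's ratio, which chance alone gives in about 1 of 20 groups. It was Klf15 after CD95-Ab, where replicate 1 stood at 37.8 CPM (ratio 0.756, critical value 0.71), still below every control. Without that mouse the log2 fold change of Klf15 was -2.30.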

How the results depend on the processing

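Klf2, Klf3, Klf6 and Klf15 passed in 18 of 18 alternative fits and Klf4 in 17 of 17. A demand of at least 10 counts in every mouse left Klf4 and Klf1 untested. With an absolute log2 fold change of 2 as a further demand, 1 member in place of 4 was higher. When each mouse was left out in turn, 4 members were higher in each fit, and from 1 to 2 were lower, the second being Klf10. With the replicate number as a block, 2 members were lower in place of 1, since Klf10 passed at -0.53 (edgeR FDR = 0.0433). The numbers were not shown to pair the mice: deviations of mice with the same number had a mean correlation of 0.0367, against -0.00622 for other numbers, and 2 of 5 saline-injected mice correlated best with their own number. Of the values that did not pass, Klf12 ranged from -0.51 to 0.018 and Klf16 from -0.0106 to 0.30 when a mouse was left out, so their signs turned. A further count covered 40 genes, the tested KLF genes and up to 4 called genes with the largest change of each list other than cell markers. Over these and 18 alternatives, 687 of 714 values kept their direction and their side of the threshold, 22 no longer passed, 3 newly passed and 2 turned sign. Nos3, which lost its call in 8 of 18 fits, Sp5 and the cell markers were not among the 40 genes. Counts on other lists moved as well. Corepressor and coactivator genes that were higher numbered 1 in place of 3 with upper quartile factors, with total counts only, with no filter and with the block. KLF genes outside the members that were lower numbered 1 in place of 2 with the demand of 10 counts and at an FDR of 0.01. Glucocorticoid-responsive genes numbered 0 to 2 higher in place of 1, and 1 to 2 lower in place of 2, when a mouse was left out. Ubiquitin ligase genes that were lower numbered 0 in place of 1 with the block. The endothelial targets that were higher numbered 8 in place of 9 with upper quartile factors and at an FDR of 0.01, and 6 with the demand of 10 counts, which left 3 untested. With an absolute log2 fold change of 2 they numbered 6, TGF-beta genes 1 in place of 5, ERK5-MEF2 and CCM genes 1 in place of 6, and the KLF15-linked genes that were lower 1 in place of 8. Other normalization factors moved the median log2 fold change of all genes by -0.0814 to -0.0127, and testing with no filter moved it by 0.0727. Klf5, Klf8 and the SP genes from Sp6 on had too few counts to be tested in the main fit. Whether depth or absent expression lies behind this was not tested.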
